A study of Mus musculus with 24 samples.

Results

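The genes described are 7 markers of the endocrine cells of the stomach, namely *Ghrl*, *Gast*, *Sst*, *Chga*, *Chgb*, *Hdc* and *Slc18a2*, out of 54532 genes in the count data. They were chosen by symbol, as the rows whose Ensembl identifier carries that symbol in GENCODE release M21, and all 7 were found once. RNA-Seq covered 4 tissues (stomach, heart, muscle and tongue) from Trex1-KO mice that received the STING antagonist SN-011 or served as controls, with 3 samples in each of the 8 groups. All groups carry the *Trex1* knockout, so no wild-type tissue stands beside them. TREX1 is a DNase that degrades cytosolic DNA, and its loss activates the cGAS-STING pathway. The sample labels give SN-011 at 5 mg/kg on 3 days per week over 4 weeks, with controls called untreated, while the study's methods give 10 mg/kg each day for 2 weeks in mice of 1 month of age and vehicle (1% Tween 80 in PBS) for the controls. No source used here says which region of the stomach was taken or whether its contents and muscle wall were removed.

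Endocrine cells are scattered through the gastric glands and differ between regions. X/A-like cells, mostly in the corpus, release ghrelin, G cells of the antrum release gastrin, and D cells in both regions release somatostatin, which restrains gastrin and acid secretion. Enterochromaffin-like (ECL) cells of the corpus answer gastrin by releasing histamine, which drives the neighbouring parietal cells. Chromogranins A and B are the granule proteins that these cells share.

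The total count per sample was 14253416 to 18443329 over the 24 samples and 14569890 to 16901178 in the stomach. At this depth 3 counts, taken as the smallest abundance that can be shown, were 0.178 to 0.206 CPM (counts scaled to the library total) in the stomach, a floor that covers counting error only. *Trex1* had 0 counts in all 24 samples, but its 1147 exonic bases all lie within exons of *Atrip* on the same strand, so this does not check the genotype. Control replicate 1 of each tissue had 3060 to 13811 counts of *Xist* and 0 to 3 of *Ddx3y*, against 0 to 20 and 825 to 1898 in the other 20 samples, so mice of both sexes are in the control groups and only males among the SN-011 samples. Muscle SN-011 replicate 2 had counts for only 11546 genes. In the heart, muscle and tongue, control replicates 2 and 3 held more transcripts of gastric gland cells than the other samples of those tissues, with values given beside the results they touch.

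In the stomach the 3 peptide hormones and chromogranin A were well above the other 3 genes per length of transcript. Ghrelin was the highest on average, with 378 ± 145 CPM per kb of exon (mean ± SD over the 6 stomach samples), followed by somatostatin with 290 ± 182, gastrin with 256 ± 263 and chromogranin A with 160 ± 82.6. *Chgb*, *Slc18a2* and *Hdc* were far lower, with 10.5 ± 6.48, 10.3 ± 3.70 and 5.61 ± 2.49 CPM per kb. *Ghrl* was above *Sst* in 5 of 6 samples and *Sst* above *Gast* in 5 of 6, while *Gast* was above *Chga* in only 2 of 6, so gastrin and chromogranin A have no fixed order. *Chga* was above *Chgb* in 6 of 6 samples and *Slc18a2* above *Hdc* in 6 of 6, whereas *Chgb* and *Slc18a2* exchanged places between samples (3 of 6 each way). The order of *Slc18a2* and *Hdc* depends on the length used. In CPM without it, *Hdc* was just above *Slc18a2* in control replicate 1 (27.3 and 26.9) and below it in the other samples.

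SN-011 was then compared with the controls in the stomach, to ask whether the hormones and amine genes of these cells moved with STING inhibition. In edgeR's quasi-likelihood test 0 of the 7 genes passed an adjusted p of 0.05. The background was the same, since 0% of the 17031 genes tested passed (0 genes). At an unadjusted p under 0.05 a single member, *Hdc*, was higher, against 13.2% of all genes higher and 11.4% lower, and that share of the members lies near the background. The median log2 fold change was 0.48 over the 7 members, 5 positive and 2 negative, beside 0.00 over all genes. In bulk tissue, fewer cells of a type and less RNA per cell cannot be told apart.

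*Ghrl* (ENSMUSG00000064177, chromosome 6, 113716119 to 113719880 of GRCm38, minus strand) encodes the precursor of ghrelin, the stomach hormone that stimulates appetite. In the controls it stood at 445, 373 and 203 CPM, scaled by TMM within the stomach, in replicates 1, 2 and 3. In the SN-011 samples it stood at 392, 681 and 351 CPM. SN-011 replicate 2 was the highest and control replicate 3 the lowest, and the groups overlapped. The log2 fold change was 0.48 (SE 0.41, 95% interval -0.46 to 1.42, edgeR adjusted p = 0.502). *Ghrl* varied 3.36-fold between the lowest and highest stomach sample, its log2 fold change was 0.11 without SN-011 replicate 2 and 0.20 without control replicate 3, and 169 of its exonic bases lie opposite *Gm44033*.

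*Gast* (ENSMUSG00000017165, chromosome 11, 100334407 to 100336996, plus strand) encodes gastrin, the hormone that stimulates acid secretion. It varied more than any other member, with 296, 60.6 and 4.92 CPM in the 3 controls and 62.7, 244 and 39.5 CPM in the 3 SN-011 samples. Even the lowest of these, control replicate 3, rested on 92 counts, so the 60.2-fold range is well above the counting floor. Both groups had 1 sample above 200 CPM and their means were close, 121 ± 155 and 115 ± 112 CPM (SD, n = 3 each). The log2 fold change of -0.06 (SE 1.15, edgeR adjusted p = 0.979) had a 95% interval of -2.68 to 2.56, which leaves room for large changes in either direction. Its sign turned without control replicate 1, to 1.78 (edgeR adjusted p between 0.343 and 0.996 over all alternatives).

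*Sst* (ENSMUSG00000004366, chromosome 16, 23889573 to 23890958, minus strand) encodes somatostatin, the inhibitory hormone of D cells. The controls had 225, 301 and 50.4 CPM and the SN-011 samples 130, 410 and 138 CPM. Replicate 2 was the highest in each group, and the groups overlapped. The log2 fold change was 0.24 (SE 0.67, 95% interval -1.29 to 1.76, edgeR adjusted p = 0.853), and it fell to -0.54 without SN-011 replicate 2 and to -0.23 without control replicate 3.

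*Chga* (ENSMUSG00000021194, chromosome 12, 102554969 to 102565028, plus strand) encodes chromogranin A, the general marker of endocrine cells. It had 395, 474 and 156 CPM in the controls and 380, 851 and 390 CPM in the SN-011 samples. Its group means were 342 ± 166 and 540 ± 269 CPM (SD, n = 3 each), a difference that lay within the spread of the samples (log2 fold change 0.66, SE 0.51, 95% interval -0.49 to 1.82, edgeR adjusted p = 0.446). Without SN-011 replicate 2 it was 0.15, and without control replicate 3 it was 0.30. *Chgb* (ENSMUSG00000027350, chromosome 2, 132781278 to 132795079, plus strand), which encodes its partner chromogranin B, pointed the other way. The controls had 50.1, 36.9 and 9.25 CPM of *Chgb* and the SN-011 samples 17.0, 46.3 and 13.6 CPM, with a log2 fold change of -0.32 (SE 0.63, 95% interval -1.77 to 1.13, edgeR adjusted p = 0.784). The sign for *Chgb* turned to 0.12 without control replicate 1.

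*Hdc* (ENSMUSG00000027360, chromosome 2, 126593667 to 126619299, minus strand) encodes histidine decarboxylase, the enzyme that makes histamine in ECL cells and mast cells. With TMM scaling it was the only member whose groups did not overlap, with 27.3, 34.0 and 10.2 CPM in the controls and 55.6, 42.9 and 45.2 CPM in the SN-011 samples. Over all genes tested 17.8% were apart in this direction and 15.2% in the other, so 1 of 7 members is no excess. With library size alone the groups of *Ghrl* were apart as well (228 to 354 CPM and 384 to 648 CPM), beside 19.7% of all genes in this direction. The log2 fold change was 1.01 (SE 0.40, 95% interval 0.09 to 1.93, edgeR adjusted p = 0.174), or 2.01-fold. It lay between 0.63 and 1.36 when each sample was left out in turn, and the adjusted p between 0.0957 and 0.435 over all alternatives. An exact two-sided permutation test of the 3 against 3 samples gave p = 0.1, the smallest that 20 relabellings allow.

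*Slc18a2* (ENSMUSG00000025094, chromosome 19, 59260896 to 59296012, plus strand) encodes VMAT2, the transporter that loads histamine and other monoamines into granules. The controls had 26.9, 57.6 and 38.2 CPM and the SN-011 samples 81.8, 53.4 and 64.0 CPM. SN-011 replicates 1 and 3 were above all controls, and SN-011 replicate 2 fell just under control replicate 2. The log2 fold change was 0.70 (SE 0.32, 95% interval -0.03 to 1.42, edgeR adjusted p = 0.217), with an exact permutation p of 0.2. For the 5 members other than *Hdc* and *Slc18a2* the exact permutation p lay between 0.5 and 1 with TMM-scaled CPM. Over the alternatives of scale it fell to 0.1 for *Ghrl*, with library size alone, and to 0.3 for *Chga*.

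**Figure D1:**
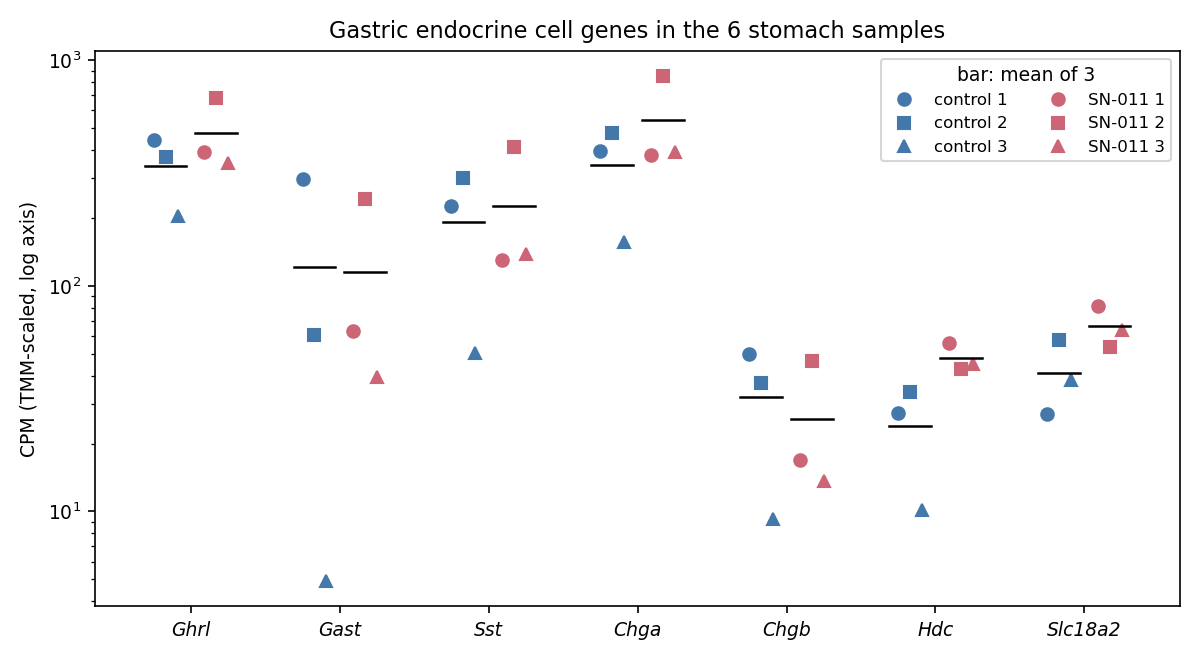
CPM of the 7 genes, scaled by TMM within the stomach, on a log axis for the 3 control (blue) and 3 SN-011 (red) stomach samples, with a bar at each group mean. Control replicate 3 (blue triangle) is the lowest sample for 6 of 7 genes, *Gast* spans 4.92 to 296 CPM, and only *Hdc* has groups that do not overlap on this scale.

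**Figure D2:**
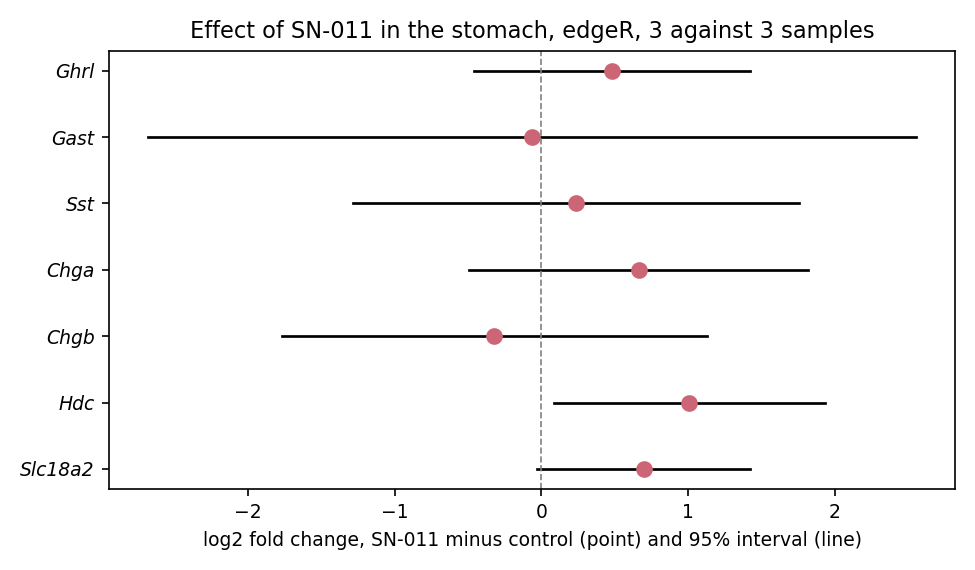
Log2 fold change of SN-011 against control in the stomach for the 7 genes (points), with the 95% interval of edgeR's quasi-likelihood fit (lines) and 3 samples per group. The interval for *Hdc*, 0.09 to 1.93, is the only one that does not hold 0, and that for *Gast* is the widest.

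Beyond the treatment, the 7 genes differed in how they moved from sample to sample. Control replicate 3 was the lowest for 6 of the 7 genes, the exception being *Slc18a2*, and its summed level over the members was 472 CPM against 1042 to 2329 in the other stomach samples. SN-011 replicate 2 was the highest for *Ghrl*, *Sst* and *Chga*, control replicate 1 for *Gast* and *Chgb*, and SN-011 replicate 1 for *Hdc* and *Slc18a2*. The ratio of *Ghrl* to *Chga* stayed within 1.66-fold over the 6 samples, whereas the ratio of *Gast* to *Ghrl* ranged over 27.5-fold and that of *Gast* to *Sst* over 13.5-fold, from 0.0976 in control replicate 3 to 1.32 in control replicate 1. The ratio of *Hdc* to *Slc18a2*, which serve the same histamine granules in ECL cells, ranged over 3.81-fold, more than that of *Hdc* to *Chga* (2.90-fold).

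As a measure of likeness, the root mean square difference of centred log2 CPM was taken over the 6 stomach samples, where 0 means the same profile. Among member pairs *Ghrl* and *Chga* were the most alike (0.263), followed by *Sst* and *Chga* (0.378) and *Sst* and *Chgb* (0.408). *Gast* and *Slc18a2* were the least alike (2.06). Among 10376 genes of at least 10 CPM, the closest to *Ghrl* was *Nucb2* (0.102), the precursor of nesfatin-1, and the closest to *Sst* was *Chga* itself. The closest to *Hdc* was *Ddah2* (0.111), to *Slc18a2* *Pgghg* (0.101), to *Chga* *Tma7-ps* (0.189), to *Chgb* *Gstm2* (0.334) and to *Gast* *Scand1* (0.802). No gene came as close to *Gast* as the nearest genes came to the other members. This measure grows with a gene's own spread, however. The SD of log2 CPM over the 6 samples was 2.12 for *Gast* and 0.564 (*Ghrl*) to 1.07 (*Sst*) for the other members. With 6 samples and so many candidates, these are descriptions of the profiles.

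The promoters of the members were searched for motifs because several of these hormone and granule genes are textbook targets of cAMP signalling through CREB. The full cAMP response element, TGACGTCA, was found in the promoter windows of *Sst*, *Chgb* and *Slc18a2*, on either strand since it is its own reverse complement, against 1.79% of 32851 RefSeq promoter windows of the same length. *Chga* held the shorter form TGACG only, which lies within the full element and was found in 20.8% of all windows on either strand, and a TATAAA after its start. Neither form was in the windows of *Ghrl*, *Gast* and *Hdc*, and *Gast* held a TATAAA on the reverse strand, 28 to 23 bases before its start (13.6% of all windows). The sequences show these elements in capitals, with *Hdc*, the gene with groups apart, as a promoter without them. They are from RefSeq on GRCm38.p6, 5′ to 3′ on the strand of the gene, and hold 250 bases before the start and the first 20 after it.
Sst (chr16:23890825-23891094, minus strand): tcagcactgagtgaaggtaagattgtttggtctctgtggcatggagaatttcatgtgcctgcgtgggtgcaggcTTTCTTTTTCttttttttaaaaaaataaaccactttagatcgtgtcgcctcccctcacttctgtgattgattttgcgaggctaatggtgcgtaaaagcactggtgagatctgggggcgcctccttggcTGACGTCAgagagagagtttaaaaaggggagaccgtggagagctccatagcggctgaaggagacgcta
Chgb (chr2:132781392-132781661, plus strand): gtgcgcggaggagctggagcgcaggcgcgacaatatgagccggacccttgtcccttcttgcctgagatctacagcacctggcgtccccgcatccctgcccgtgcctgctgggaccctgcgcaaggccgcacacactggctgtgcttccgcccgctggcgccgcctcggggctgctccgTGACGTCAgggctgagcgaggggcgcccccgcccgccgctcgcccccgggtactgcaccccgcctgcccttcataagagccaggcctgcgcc
Slc18a2 (chr19:59260628-59260897, plus strand): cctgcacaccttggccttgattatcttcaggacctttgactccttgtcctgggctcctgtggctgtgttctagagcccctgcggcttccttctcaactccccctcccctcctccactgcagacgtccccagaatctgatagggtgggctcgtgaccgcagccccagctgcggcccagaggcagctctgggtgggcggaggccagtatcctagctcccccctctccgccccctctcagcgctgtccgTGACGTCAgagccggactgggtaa
Chga (chr12:102554691-102554960, plus strand): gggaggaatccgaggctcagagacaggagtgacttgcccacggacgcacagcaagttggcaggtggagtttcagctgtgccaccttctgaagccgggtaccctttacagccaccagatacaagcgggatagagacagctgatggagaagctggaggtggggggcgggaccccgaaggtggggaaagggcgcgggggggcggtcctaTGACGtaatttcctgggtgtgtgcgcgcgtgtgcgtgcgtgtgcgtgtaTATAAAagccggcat
Hdc (chr2:126618659-126618928, minus strand): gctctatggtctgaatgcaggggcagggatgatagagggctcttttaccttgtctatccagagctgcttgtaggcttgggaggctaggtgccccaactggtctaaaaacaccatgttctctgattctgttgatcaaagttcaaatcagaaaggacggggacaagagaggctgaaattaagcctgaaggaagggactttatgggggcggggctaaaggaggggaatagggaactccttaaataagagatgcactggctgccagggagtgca
The element begins 48 bases before the start in *Sst*, 72 before it in *Chgb* and 4 before it in *Slc18a2*, and TGACG begins 44 bases before it in *Chga*. The first capitals in *Sst* mark a match to the core of the interferon-stimulated response element, found in 3.44% of all windows, and no other member held it. In the stomach the 3 genes with the full element had log2 fold changes of 0.24 (SE 0.67), -0.32 (SE 0.63) and 0.70 (SE 0.32).

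Genes that act in the same cells were examined as lists. Of 15 transcription factors of endocrine cells, 12 passed the filter on low counts, and 0 passed the adjusted threshold. At an unadjusted p under 0.05, 3 of the 12 were higher and 0 lower, beside 13.2% and 11.4% of all genes, with a median log2 fold change of 0.10 over the list. They were *Nkx2-2*, with a mean of 1.02 CPM in the controls and 3.18 in the SN-011 samples, *Rfx6*, with 2.80 and 7.09 CPM, and *Isl1*, with 33.3 and 60.8 CPM (edgeR adjusted p = 0.151, 0.161 and 0.164). *Neurog3*, which starts endocrine differentiation, had at most 13 counts in any stomach sample. *Nkx6-3*, a factor of the antrum needed by G cells, had 40.2, 28.4 and 3.48 CPM in the controls and 16.5, 48.1 and 28.1 CPM in the SN-011 samples. Its lowest sample was control replicate 3, which was the lowest for 6 members, *Gast* among them. *Pdx1*, of the same list, was instead lowest in SN-011 replicate 1, with 0.0589 CPM against 0.856 CPM in control replicate 3.

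Of the 16 genes for prohormone processing and granules, all 16 were tested and 14 had a positive log2 fold change, as had 8554 of the 17031 genes tested, with a median of 0.47 and 0 adjusted calls. *Ptprn*, a granule membrane protein, had 13.8, 10.4 and 10.4 CPM in the controls and 34.2, 26.3 and 22.7 CPM in the SN-011 samples (log2 fold change 1.27, SE 0.27, edgeR adjusted p = 0.0715). Its paralog *Ptprn2* had a log2 fold change of -1.52 (SE 0.64, edgeR adjusted p = 0.193). These were the only genes of the list at an unadjusted p under 0.05. *Cpe*, which trims prohormones and was the most abundant of the list, had means of 259 and 427 CPM with overlapping groups. *Mboat4*, the acyltransferase that activates ghrelin, had means of 4.67 and 3.42 CPM (log2 fold change -0.45, SE 0.53).

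Of 6 genes for amine synthesis and breakdown, 5 were tested, all 5 with a positive log2 fold change (median 0.43) and 0 adjusted calls. Of all 17031 genes tested, 8554 had a positive log2 fold change. *Maoa*, which breaks down monoamines, had means of 8.41 and 15.9 CPM with groups apart (log2 fold change 0.92, SE 0.31, edgeR adjusted p = 0.129). Over all genes tested 17.8% were apart in this direction, so 1 of 5 is near that share. *Hnmt*, which inactivates histamine, had 3.83 and 5.00 CPM, and *Tph1*, the serotonin synthesis enzyme of enterochromaffin cells, 4.37 and 5.91 CPM, both with overlapping groups. Of 12 receptors, 6 were tested, with a median of -0.26 and 0 adjusted calls. At an unadjusted p under 0.05 *Hrh2* was lower and *Sstr3*, a somatostatin receptor gene with means of 0.110 and 0.707 CPM, higher. Over all genes 11.4% were lower and 13.2% higher at that threshold. *Sstr3* had at most 13 counts in any stomach sample, and its control mean lay under the counting floor. It passed the filter through the SN-011 samples, where it was high, so its value is a description. *Hrh2*, the histamine receptor by which ECL cells act on parietal cells, had 38.5, 35.3 and 36.5 CPM in the controls and 16.1, 23.9 and 21.9 CPM in the SN-011 samples (log2 fold change -0.83, SE 0.24, edgeR adjusted p = 0.0977). The gastrin receptor gene *Cckbr* had means of 5.69 and 3.13 CPM with overlapping groups, and the ghrelin receptor gene *Ghsr* had 0 counts in all 6 stomach samples.

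Other gut peptides are made by endocrine cells or by enteric neurons. Of 17 genes, 14 were tested and 0 passed the adjusted threshold, with a median log2 fold change of 0.47, 3 of 14 higher and 0 lower at an unadjusted p under 0.05 (13.2% and 11.4% of all genes). The 3 were *Penk*, with means of 16.6 and 52.4 CPM, *Gal*, with 2.34 and 8.99 CPM, and *Calca*, with 0.527 and 4.06 CPM (edgeR adjusted p = 0.0781, 0.0969 and 0.0907), peptides that enteric and sensory neurons are known to make. *Calca* passed the filter through the SN-011 samples, where it was high, so its value is a description. The most abundant of the list were *Vip* (40.5 and 58.6 CPM), *Grp* (32.3 and 38.6 CPM) and *Penk*.

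Summed levels of 4 marker lists of other stomach cells did not overlap between the groups. Those of chief cells, mucous cells, smooth muscle and the pancreas overlapped. Of single genes 17.8% were apart with SN-011 higher and 15.2% with SN-011 lower. No such share was taken for sums of lists, so the 4 are descriptions. Against 13.2% of all genes higher and 11.4% lower at an unadjusted p under 0.05, the counts were as follows. Forestomach squamous epithelium, which holds no gastric glands, had 9 of 10 markers higher at an unadjusted p under 0.05, and their summed level was 148 to 343 CPM in the controls and 702 to 1886 CPM in the SN-011 samples. Of 10 parietal cell markers, 5 were lower and 0 higher, with sums of 8576 to 10860 CPM in the controls and 2154 to 5973 CPM in the SN-011 samples. Neuron markers had 7 of 10 tested genes higher, with sums of 56.4 to 142 CPM against 170 to 311 CPM. Of 10 tested mast cell markers, 5 were lower and 2 (*Kit* and *Gata2*) higher, with sums of 107 to 128 CPM against 64.0 to 74.7 CPM, and *Mrgprb2* was at 0 in all 6 samples. Fewer markers of the other lists were at an unadjusted p under 0.05, with 1 higher and 1 lower of 4 tested for chief cells, 1 and 1 of 8 for mucous cells, 1 and 0 of 6 for smooth muscle and 1 and 0 of 3 tested for the pancreas. None of these markers passed the adjusted threshold, and their part in the values of the 7 genes was not tested. Those counted as higher include *Ivl* (forestomach), *Chat* (neuron) and *Cpa1* (pancreas). These passed the filter through the SN-011 samples, where they were high. Mast cells and neurons can themselves express several of the members, *Hdc* and *Slc18a2* among them. The mast cell proteases *Mcpt1* (29.5 and 2.62 CPM) and *Mcpt2* (26.7 and 4.15 CPM) were lower in the SN-011 samples (edgeR adjusted p = 0.0621 and 0.0618). *Kit* (24.95 and 43.1 CPM) and *Gata2* (2.25 and 6.73 CPM) of the same list were higher (edgeR adjusted p = 0.19 and 0.0817). Which cells the *Hdc* counts came from was not tested.

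**Figure D3:**
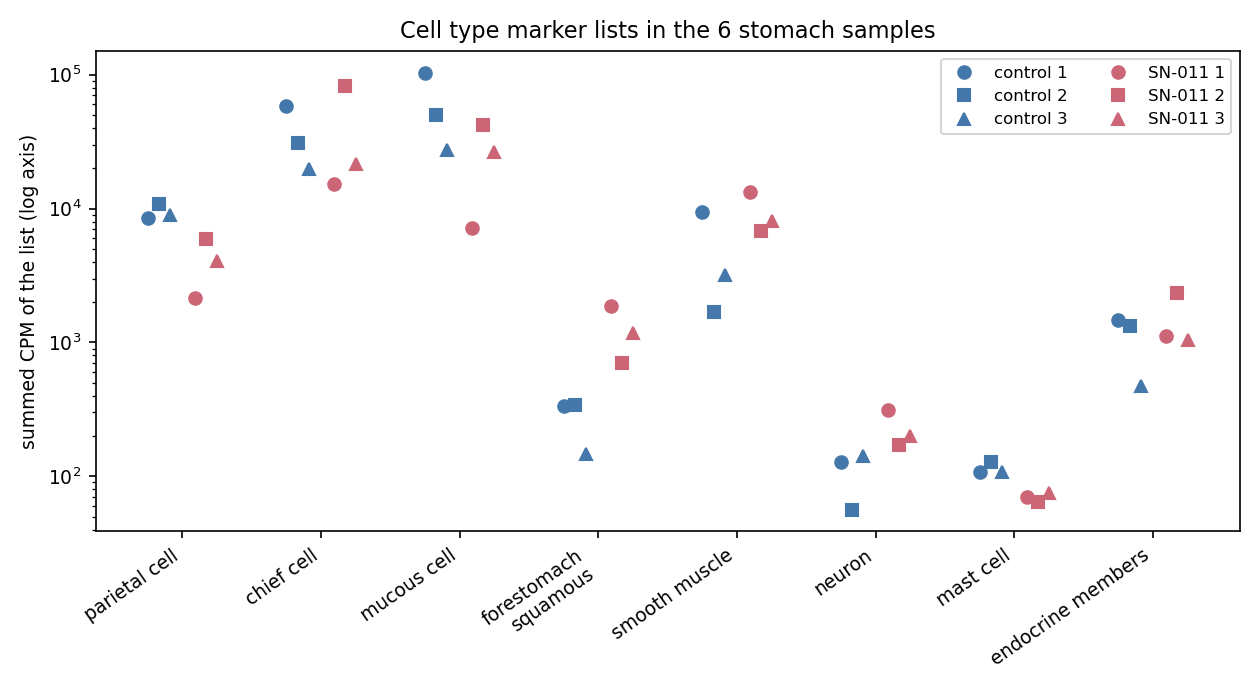
Summed CPM, on a log axis, of 7 cell type marker lists and of the 7 endocrine genes in the 3 control (blue) and 3 SN-011 (red) stomach samples. Parietal and mast cell sums lie lower and forestomach squamous and neuron sums higher in the SN-011 samples without overlap, while the endocrine sums, 472 to 1465 and 1042 to 2329 CPM, overlap.

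The other tissues served as background for the labelled tissue. *Gast*, *Sst* and *Chgb* did not pass the filter on low counts in heart or muscle alone, nor *Sst* in tongue, so they entered the joint fit of all 24 samples through the stomach and had to differ, and their differences are descriptions. Of the members kept in both tissues alone, *Ghrl*, *Chga* and *Slc18a2* were higher in control stomach than in heart, muscle and tongue, as were *Gast* and *Chgb* than in tongue and *Hdc* than in muscle (edgeR adjusted p under 0.05). Over the 19731 genes of this fit 21.6%, 27.3% and 16.9% were higher in the stomach in these comparisons. *Slc18a2* differed from the heart by a log2 of 3.62 (SE 0.63, edgeR adjusted p = 0.000112). *Gast* had 0 counts in 4 of 6 heart samples, 1 of them a control. For *Ghrl* the log2 differences were 6.09 against the heart, 6.71 against the muscle and 5.41 against the tongue, and without control replicate 2 of the other tissue they were 8.55, 7.86 and 5.97. On the joint CPM scale the lowest stomach sample was above the highest of any other tissue by 14.5-fold for *Ghrl*, 5.88-fold for *Slc18a2* and 4.20-fold for *Chga*. For the members that did not pass the filter in every tissue alone, it was 6.63-fold for *Sst*, 3.48-fold for *Chgb* and 2.03-fold for *Gast*. The share of all genes apart in this way was not taken, so these values are descriptions.

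*Hdc* was the exception. Its control mean on the joint scale was 20.02 CPM in the stomach, 36.9 in the heart, 14.1 in the tongue and 4.83 in the muscle. It passed only against the muscle (log2 difference 2.05, SE 0.54, edgeR adjusted p = 0.00355), not against the heart (-0.88, SE 0.51, edgeR adjusted p = 0.174) or the tongue (0.51, SE 0.51, edgeR adjusted p = 0.476). All 6 heart samples had 527 to 931 counts of *Hdc*, and all 6 tongue samples 149 to 354. *Slc18a2*, the other amine gene, had at most 64 counts in any heart, muscle or tongue sample.

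The low levels of the members outside the stomach were uneven. In the heart, muscle and tongue, 23 genes of parietal, chief and mucous cells had a summed level of 0.520% to 4.45% (median 2.62%) of the stomach mean in control replicates 2 and 3, and of 0.0727% to 0.205% in the other 12 samples. Medians were higher in these 6 samples than in the other 12 for *Ghrl* (2.06% and 0.251%), *Sst* (1.90% and 0.0158%) and *Chga* (4.88% and 0.456%). They were also higher for *Gast* (0.711% and 0.0749%) and *Chgb* (3.95% and 1.32%). The amine genes differed less, with medians of 6.49% and 4.74% for *Slc18a2* and of 43.1% and 52.4% for *Hdc*. Ranges overlapped for all 7 members, for *Chgb* with 0.400% to 8.95% and 0% to 4.48%. Heart control replicate 2, for example, had 184 counts of *Ghrl* and 487 of *Chga*, while heart control replicate 1 had 17 and 14. *Gast* did not follow the gland genes in every sample, since muscle control replicate 1, which was not high in gland genes, had 23 counts and the other 5 muscle samples 0 to 5.

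**Figure D4:**
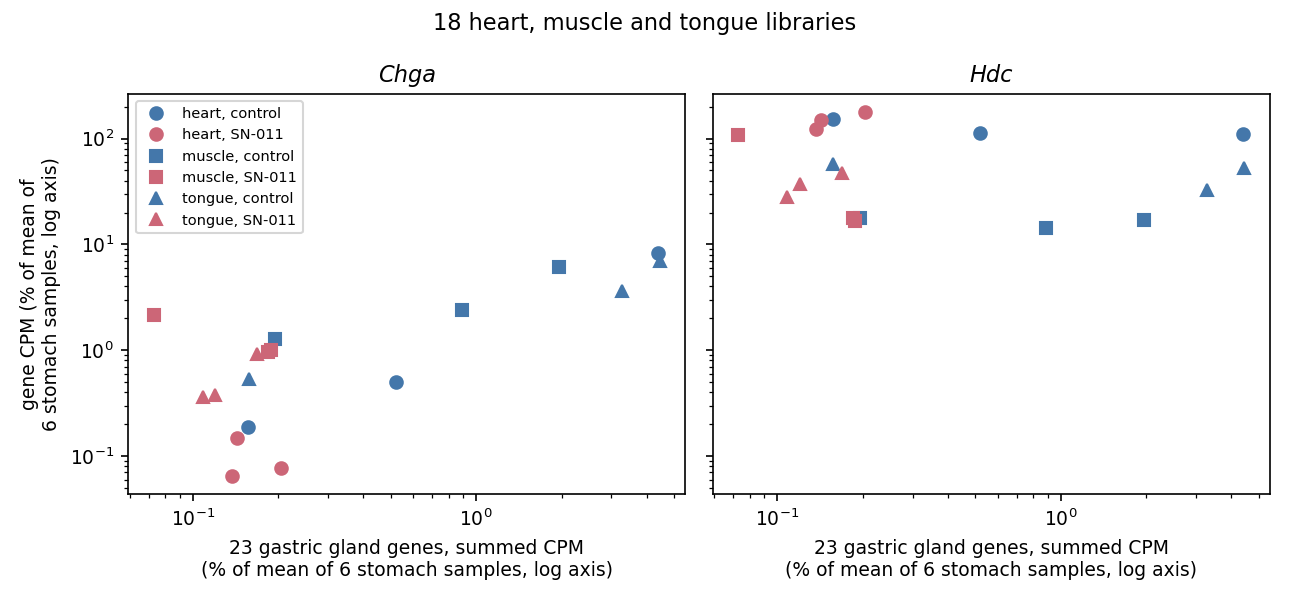
CPM of *Chga* (left) and *Hdc* (right) against the summed CPM of 23 gastric gland genes in the 18 heart, muscle and tongue samples, each as a percent of the mean of the 6 stomach samples on log axes. Within each tissue the 2 control samples with the most gland transcripts also have the most *Chga*, while *Hdc* shows no such order. For *Hdc*, muscle SN-011 replicate 2 (109%) lies far above the other muscle samples, though not above the heart samples.

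The SN-011 comparison within these tissues sets controls, 2 of 3 of them high in gland transcripts, against SN-011 samples that are not. After the filter on low counts 4 members were tested in heart, 4 in muscle and 6 in tongue, and 0 passed the adjusted threshold, against 0.848%, 0.0141% and 0% of all genes. In the heart, *Chga* had 14, 487 and 38 counts in the controls and 9, 4 and 5 in the SN-011 samples (log2 fold change -4.91, SE 1.38, edgeR adjusted p = 0.102), and *Ghrl* had a log2 fold change of -3.22 (SE 1.08, edgeR adjusted p = 0.136). Without control replicates 2 and 3, a choice made after seeing the data that leaves a lone control whose spread is taken from the SN-011 samples, these values were -0.94 and -0.87. The control left, replicate 1, is also the Xist-high sample of each tissue, so sex and gland transcripts cannot be told apart on this step. On the same step *Chga* went from a log2 fold change of -2.73 to 0.04 in the tongue, and from -1.11 to 0.19 in the muscle. *Hdc* had a log2 fold change of 0.27 (heart), 1.74 (muscle) and -0.35 (tongue) (edgeR adjusted p = 0.38, 0.415 and 0.61), and the muscle value came from SN-011 replicate 2, with 286 counts against 49 to 61 in the other samples, and was 0.08 without it.

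The effect of SN-011 in the stomach was also set against that in each other tissue, by an interaction in the joint fit. Of the members kept in both tissues alone, 0 of 4 passed against the heart, 0 of 4 against the muscle and 0 of 6 against the tongue, beside 2.01%, 6.95% and 0.821% of all genes. For *Hdc* the stomach effect exceeded the heart effect by 0.70 on the log2 scale (SE 0.72, edgeR adjusted p = 0.694) and the tongue effect by 1.31 (SE 0.72, edgeR adjusted p = 0.403). For *Chga* the difference from the heart was 5.52 (SE 1.55, edgeR adjusted p = 0.0652), and without heart control replicate 2, the sample with 487 counts, it was 2.44. *Chga* was kept in the heart through the controls, so this difference is a description.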

How the data were processed

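The authors deposited each sample's read-pair count per gene as raw values. The labels name mm10, HISAT2 and HTSeq, while the study's methods give featureCounts on uniquely mapped pairs after Trimmomatic and hisat2. The annotation release is not given in the sources used here, and 54495 of 54532 identifiers are in GENCODE M21 (GRCm38, the build called mm10).

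Under R 4.3.3, edgeR 4.0.16 fitted each tissue by its quasi-likelihood method after filterByExpr (at least 10 counts, total 15) and TMM, with 0.125 as prior count, and p-values were adjusted by Benjamini-Hochberg over all genes tested (threshold 0.05). Tissue contrasts and interactions came from a joint fit of 24 samples with 8 groups, which treats tissues as separate samples. Same-numbered tissues may come from the same mouse (control replicate 1 is Xist-high in all 4), so a fit with number and treatment as the mouse was an alternative. Samples were grouped by label. Nothing says that replicates are separate mice, so p-values measure the spread between these samples. No 2 libraries of a group agreed within sampling noise. The fits were tested on simulated data with known answers. In the stomach comparison of those data, 48.5% of 200 genes changed by a log2 of 1 and 99.5% of those changed by 2 were recovered. Recovery at the spread of the real stomach samples, where the SE was 0.32 for *Slc18a2* and 1.15 for *Gast*, was not tested. Alternatives were other scaling, filters, DESeq2 1.42.0, the exact test, a joint fit, the replicate block and samples left out. The members and lists were chosen with earlier results of these data known. From each list, the most abundant genes and those of smallest p were named, and others, such as *Nkx6-3*, *Pdx1*, *Neurog3*, *Mboat4*, *Ghsr*, *Mrgprb2* and *Tph1*, after their values were seen. For each member the most similar gene of 3 found is given. Protein sequences were not used here. Figures were drawn with matplotlib 3.10.9 in Python 3.11.15.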

Additional observations from a re-analysis of the deposited data

How the results depend on the processing

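In the stomach 0 members were called under any of the 14 alternatives, while the number of genes called was 1368 with no filter, 126 with at least 10 counts in every sample, 2389 with DESeq2, 1835 with the exact test, 181 with the replicate block and 2738 in the joint fit, and 0 to 64 with a sample left out. Library size alone in place of TMM raised the median log2 fold change of all genes by 0.17 and turned *Gast* to 0.26. *Gast* was also 1.16 with the replicate block, 1.78, 0.23 and 0.34 without control replicate 1, SN-011 replicate 1 or SN-011 replicate 3, and 0.847 (log2 scale) and 19.4 CPM (library size) as a permuted difference. *Chgb* was 0.12 without control replicate 1, and *Sst* -0.23 without control replicate 3 and -0.54 without SN-011 replicate 2. The log2 fold changes of *Ghrl*, *Chga*, *Hdc* and *Slc18a2* kept their sign under all 15 of their alternatives, with 0.11 to 0.69, 0.15 to 0.97, 0.63 to 1.36 and 0.44 to 1.03 when a sample was left out. The numbers of control and SN-011 samples do not pair them (correlations -0.0763, 0.292 and -0.0105 in the stomach), and the replicate block changed no call of a member.

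In the heart 137 genes were called, and 249 (library size), 1888 (no filter), 265 (10 counts), 1361 (DESeq2), 918 (exact test), 242 (replicate block), 1 (joint fit), 279 (without control replicates 2 and 3) and 1 to 787 with a sample left out. Members called there were 4 with no filter, 1 with DESeq2 (*Chga*) and 2 with the exact test (*Ghrl* and *Chga*), all with controls 2 and 3 in. *Ghrl* and *Chga* passed the filter in the heart through the controls, where they were high, so these calls are descriptions. In the muscle the 2 genes became 1 (RLE), 1 (library size), 110 (no filter), 75 (10 counts), 880 (DESeq2), 479 (exact test), 0 (replicate block), 474 (joint fit), 0 (without control replicates 2 and 3) and 0 to 1103 with a sample left out. In the tongue 0 became 18 (no filter), 418 (DESeq2), 253 (exact test), 4 (joint fit), 146 (without control replicates 2 and 3) and 0 to 2135 with a sample left out. Members called in the tongue were 1 with DESeq2 (*Chga*), 1 with the exact test (*Gast*) and 0 to 3 with a sample left out, the 3 without control replicate 1. *Gast* too passed the filter in the tongue through the controls, where it was high, so its call is a description. The *Chga* interaction with the heart, a description for the same reason, passed with library size alone (1 member).

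*Slc18a2* changed sign in the heart (0.036 with the replicate block, 0.31 without control replicate 2, 0.09 without SN-011 replicate 3, 0.80 without control replicates 2 and 3), the muscle (0.24 without SN-011 replicate 2) and the tongue (0.019 with the replicate block, 0.43 without control replicate 2, 0.17 without control replicates 2 and 3). *Chga* became 0.19 in the muscle and 0.035 in the tongue without control replicates 2 and 3. The *Hdc* interaction with the muscle became 0.88 without muscle SN-011 replicate 2, and the *Chgb* interaction with the tongue -0.18 without stomach SN-011 replicate 2. With each sample left out, these results ranged from -1.26 to 1.78 (*Gast*), -0.54 to 0.71 (*Sst*) and -1.09 to 0.12 (*Chgb*) in the stomach, for *Slc18a2* from -0.33 to 0.31 (heart), -0.79 to 0.24 (muscle) and -0.40 to 0.43 (tongue), and for the interactions from -0.99 to 0.88 (*Hdc*) and -0.18 to 1.07 (*Chgb*). The counts of 6, 7 and 6 members higher in control stomach than in heart, muscle and tongue were the same under all 12 alternatives of each tissue. They include members that entered through the stomach and had to differ, *Gast*, *Sst* and *Chgb* against heart and muscle and *Sst* against tongue. In the main fit 21.6%, 27.3% and 16.9% of all genes were higher in the stomach. The fit with same-numbered tissues of a treatment as 1 mouse (8 of 18 correlations of stomach with another tissue above 0.1, from -0.135 to 0.274) changed no call of a member. For changed values the cause was not tested. With 3 samples a group, changes smaller than the intervals could not be told from none.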
